A study of Mus musculus with 280 samples.

Results

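The 31 blastocysts of sequencing plates 2 and 3 were examined for the effect of the father's diet, out of 280 single embryos in the series. They were taken by their labelled stage, and 5 further blastocysts of plate 6 were set aside because all of them had low protein sires. Of the 31, 17 (LP) came from sperm of males fed a low protein diet and 14 (C) from sperm of males fed a control diet. Every embryo was made by in vitro fertilization of an oocyte from a control-fed female, the strain was FVB, an inbred mouse line, and growth was in KSOM, a medium for preimplantation embryos. Each embryo gave 1 library, made from total RNA with a single-cell protocol, and its values are in TPM, a share of all transcripts that is corrected for gene length and so can be compared between genes.

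The design sets limits on what a diet difference can be. Plate 2 held 14 LP and 11 C embryos and plate 3 held 3 LP and 3 C embryos. On each plate all LP embryos had 1 sire and all C embryos had 1 other sire, so there were 2 sires per diet, and diet and sire cannot be told apart within a plate. The sires weighed 24.25 g (LP) and 24.71 g (C) for plate 2, and 26.13 g (LP) and 28.74 g (C) for plate 3. Oocytes came from 4 donors aged 7 to 10 weeks, each of which supplied both diets. The diet's composition and length are not given in the sources used here, and embryos of 1 sire share a father, so p-values over embryos measure the spread between embryos and not between fathers.

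By the blastocyst stage a mouse embryo has made its first lineages. The outer trophectoderm, marked by Cdx2, Gata3 and the keratins Krt8 and Krt18, pumps fluid into the blastocoel and later forms placenta. The inner cell mass holds the pluripotent epiblast, marked by Nanog and Pou5f1, and the primitive endoderm, marked by Gata6, Gata4, Sox17 and Pdgfra. In female embryos the long RNA Xist coats and silences an X chromosome, at first the paternal one. The comparison asks whether gene expression in the embryo differs with the diet of the father alone, since the mothers were all on the control diet.

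Transcripts that mark each of the 3 lineages were detected in both groups, which in whole embryos does not show the cells themselves. Krt8, a trophectoderm keratin, had 3137, 6402 and 10120 TPM as the lowest, median and highest value in LP embryos, against 1349, 5700 and 9904 TPM in C embryos. Cdx2, the transcription factor that directs trophectoderm, had 71.7, 118.7 and 191.8 TPM in LP embryos, against 53.9, 121.5 and 154.7 TPM in C embryos. Both ranges overlapped over most of their length. Nanog had 171.3, 308.6 and 606.9 TPM in LP embryos, against 226.9, 440.7 and 685.7 TPM in C embryos. Pou5f1, the pluripotency factor also called Oct4, had a median of 394.1 TPM in LP embryos and 393.5 TPM in C embryos. The primitive endoderm genes were lower and more uneven. Gata4 was low, with a median of 1.14 TPM in LP embryos and 0.995 TPM in C embryos. Sox17 ran from 0.76 to 31.2 TPM in LP embryos and from 0 to 31.6 TPM in C embryos, and Pdgfra from 1.24 to 11.7 TPM in LP embryos and from 0.74 to 11.6 TPM in C embryos.

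**Figure D1:**
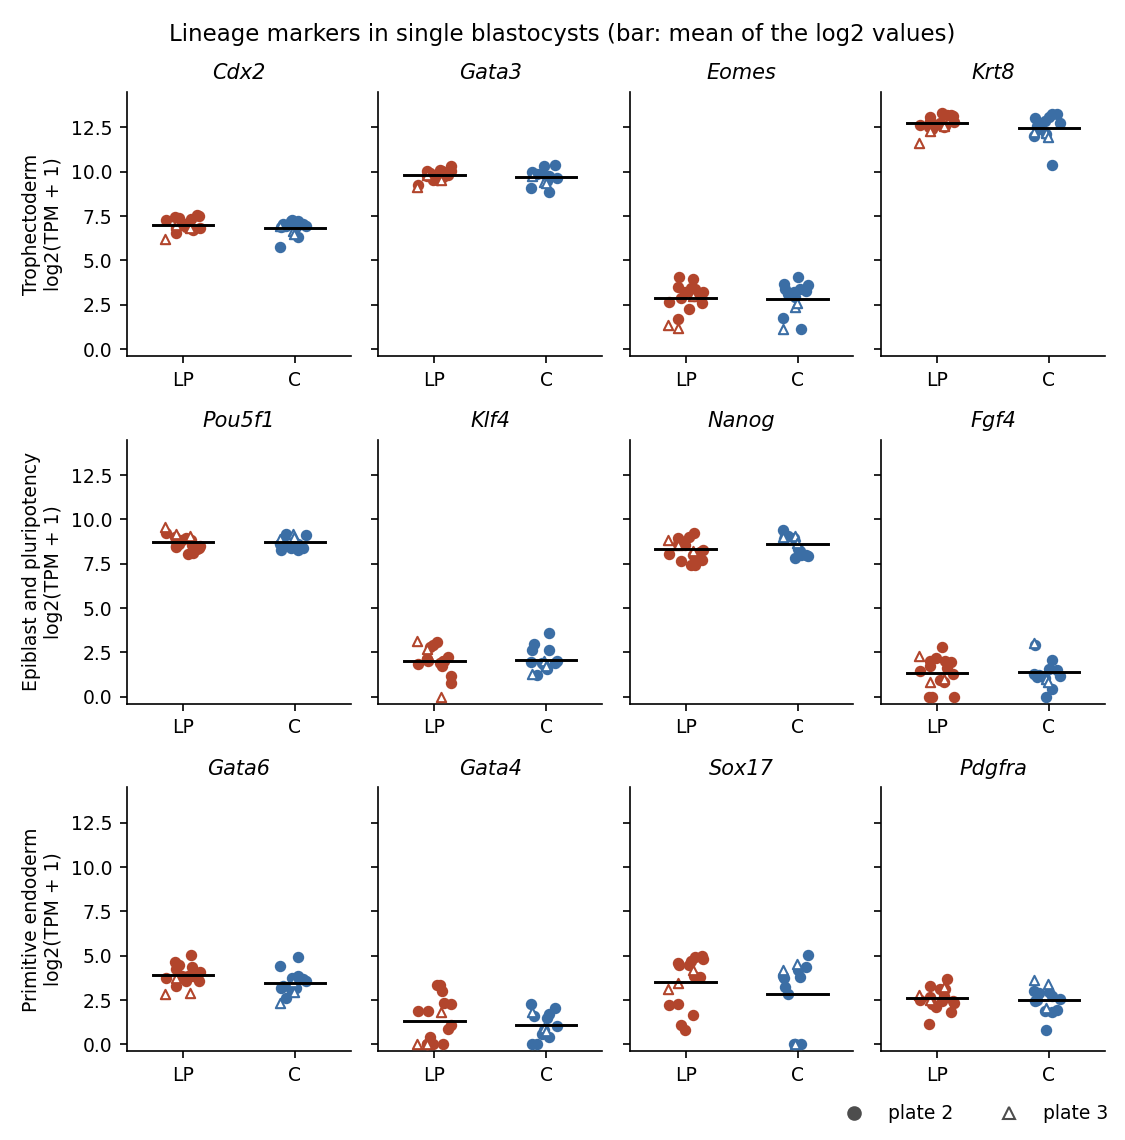
Markers of trophectoderm, epiblast and primitive endoderm in each blastocyst, as log2(TPM + 1) on the vertical axis, with LP embryos left of C embryos, circles for plate 2, triangles for plate 3 and a bar at the mean of each group. The groups overlap for every marker, and 1 C embryo of plate 2 has the lowest Krt8, 1349 TPM.

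A single C embryo stood apart. C replicate 11, of plate 2, had the lowest Krt8, Krt18 and Gata3 of all 31 embryos and the lowest sum over the trophectoderm markers, 10690 TPM, where the other C embryos started at 14509 TPM. On a score built from the 4 morulae and 5 late blastocysts of plate 7 (the mean log2 value of the 100 genes most increased between them, less that of the 100 most decreased), it scored 0.18. LP embryos scored 2.24 ± 0.52 (SD, n = 17) and C embryos 2.21 ± 0.74 (SD, n = 14), between -3.47 ± 0.39 in those morulae (SD, n = 4) and 4.14 ± 0.88 in those late blastocysts (SD, n = 5). The genes were picked on those plate 7 embryos, which sets their own scores far apart, so a place between them was favored in advance. The 5 LP blastocysts of plate 6 scored -0.63 ± 0.37 (SD, n = 5) and averaged 349 ± 208 TPM of Krt8, while the lowest of the 31 scored 0.18. C replicate 10 was unusual in another way, with 964.7 TPM of the maternal transcript Zbed3, while LP embryos reached 3.27 TPM and the other C embryos 9.76 TPM at most. Both of these C embryos, with LP replicates 13 and 14, carry a suffix on the sire's identifier whose meaning is not given in the sources used here. For part of the gene lists, values are given below without C replicate 11 or without these 4 embryos.

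Per embryo, the libraries of both diets were alike in what they detected. LP embryos had 8525 ± 208 genes at 1 TPM or more (SD, n = 17) and C embryos 8529 ± 306 (SD, n = 14). The difference within plates was -13.1 genes (two-sided permutation of diet within plate, p = 0.881). The share of TPM taken by Rn45s, the ribosomal RNA precursor, was 2.88 ± 0.61% in LP embryos (SD, n = 17) and 2.86 ± 0.66% in C embryos (SD, n = 14), with a permutation p of 0.993. The median correlation between embryos of plate 2 was 0.937 within LP, 0.922 within C and 0.932 between LP and C (across genes, which are not independent replicates). The table holds no read counts, so the depth of these libraries is unknown.

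No gene passed the test of paternal diet. Of 9290 genes with at least 1 TPM in at least 25% of the embryos, 0 reached an adjusted p of 0.05 in the limma fit with plate as covariate (0% of genes tested), and the smallest adjusted p was 0.338. At an unadjusted p under 0.05 there were 390 genes, 4.2% of those tested, of which 191 (2.06%) were higher and 199 (2.14%) lower in LP embryos. The typical difference was small, with a median size of 0.12 on the log2(TPM + 1) scale. This scale understates the change of genes near 1 TPM.

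The fit still bounds how large the mean difference between the LP and C embryos of these particular sires could be. For 8386 of the 9290 genes (90.3%) the 95% interval of the LP minus C difference lay within 1 log2 unit of 0 on either side. Among the 6751 genes averaging 5 TPM or more in 1 diet, that held for 6222 (92.2%), and the median distance from the estimate to either end of the interval was 0.34 log2 units. For Nanog the interval ran from -0.64 to 0.11 and for Krt8 from -0.12 to 0.65. For Xist, which was near 0 in some embryos and high in others, it ran from -3.50 to -0.33. These intervals treat each embryo as independent, and with 2 sires per diet an exact test over sires could not go below a two-sided p of 0.333.

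**Figure D2:**
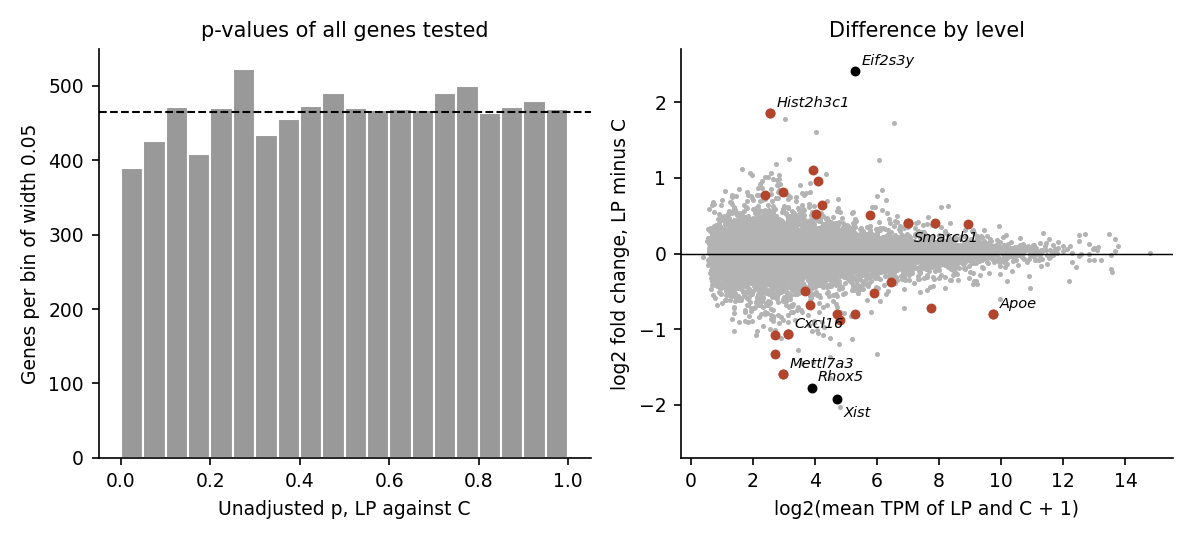
Left, the number of genes (vertical axis) in each 0.05-wide bin of unadjusted p for LP against C, with a dashed line at 464.5 genes, the even share of 9290 genes over 20 bins; the lowest bin holds 390. Right, the log2 fold change LP minus C of each gene against its log2 mean level, with the 24 genes of smallest p and a mean of 5 TPM or more in red, and Xist, Rhox5 and Eif2s3y in black.

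The 24 genes of smallest p with a mean of 5 TPM or more in 1 diet are described next, as the upper end of a list in which none passed. In LP embryos 11 were higher and 13 lower, with adjusted p between 0.338 and 0.832. The ranges of LP and C embryos overlapped for all 24. The sign was the same on both plates for 21, and Hist2h3c1 and Trmt61b had opposite signs. Because the 24 were picked by p over both plates together, the choice itself favored a shared sign, which is no replication. E330023G01Rik was not kept on plate 3.

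Smarcb1, on the minus strand at chr10:75896769-75921617 (mm10), encodes a core subunit of the SWI/SNF chromatin remodeling complex. It had 88.3, 149.5 and 171.4 TPM as lowest, median and highest value in LP embryos, against 77.4, 104.9 and 146.3 TPM in C embryos. Of the 17 LP embryos 15 lay above the C median. The difference was 0.40 log2 units (SE 0.08, adjusted p = 0.338). It was 0.47 on plate 2 and 0.11 on plate 3, where LP embryos had 88.3, 100.4 and 114.0 TPM and C embryos 78.1, 98.5 and 104.4 TPM. Plate 2 thus carried most of the difference. Necap2, a protein of clathrin-coated vesicles, had 38.5, 62.8 and 79.9 TPM in LP embryos and 23.8, 41.2 and 68.2 TPM in C embryos, and 16 of 17 LP embryos lay above the C median. Its difference was 0.51 log2 units (SE 0.13, adjusted p = 0.545), 0.48 on plate 2 and 0.64 on plate 3.

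Other genes of the 24 were higher in LP embryos as well. Gng5, a G protein gamma subunit, averaged 269.5 ± 73.8 TPM in LP embryos and 200.6 ± 53.9 TPM in C embryos (SD, n = 17 and 14). Eif3b, a subunit of the translation initiation factor eIF3, averaged 18.1 ± 5.4 TPM in LP embryos and 12.4 ± 4.5 TPM in C embryos, and all 17 LP embryos were above the C median of 10.5 TPM. Enpp1, an ectoenzyme that cleaves extracellular nucleotides, had 4.83, 19.01 and 31.4 TPM in LP embryos, against 1.05, 9.51 and 25.3 TPM in C embryos. Rbms1, Slc6a14, an amino acid transporter, Map2k5, the kinase upstream of ERK5, and Coq2, an enzyme of coenzyme Q synthesis, were higher in LP embryos by 0.65, 0.96, 0.78 and 0.81 log2 units. Hist2h3c1, a histone H3 gene with near-identical copies and so of uncertain count, had a median of 6.92 TPM in LP embryos and 0 TPM in C embryos. Its log2 difference was 2.41 on plate 2 and -0.40 on plate 3.

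Among the 13 genes that were lower in LP embryos was Cxcl16. This chemokine gene, at chr11:70453983-70459984, had 1.28, 4.75 and 11.3 TPM in LP embryos, against 5.27, 7.88 and 27.1 TPM in C embryos. Of the 17 LP embryos 15 lay below the C median, and the difference was -1.06 log2 units (SE 0.25, adjusted p = 0.545), -1.04 on plate 2 and -1.15 on plate 3. Apoe, the lipid-carrying apolipoprotein at chr7:19696109-19699188 and a primitive endoderm marker, had 180.2, 446.5 and 2311 TPM in LP embryos, against 402.3, 719.6 and 2709 TPM in C embryos. The high values came from plate 3, where the LP embryos had 1231, 1246 and 2311 TPM and the C embryos 1927, 2567 and 2709 TPM. The difference was -0.80 log2 units (SE 0.21, adjusted p = 0.673), -0.84 on plate 2 and -0.64 on plate 3. Kdelr3, a receptor that returns proteins to the endoplasmic reticulum, had 4.98, 19.2 and 32.4 TPM in LP embryos, against 16.2, 33.2 and 57.95 TPM in C embryos. All 17 LP embryos lay below its C median (log2 difference -0.88, SE 0.23, adjusted p = 0.673). Cyr61, a matrix protein and a known target of the Hippo effector YAP, averaged 28.9 ± 15.8 TPM in LP embryos and 47.5 ± 17.1 TPM in C embryos (SD, n = 17 and 14). Both had their highest C value in C replicate 11, and the range of log2 differences with each embryo or sire left out was -0.96 to -0.66 for Kdelr3 and -0.92 to -0.32 for Cyr61.

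The rest of the lower genes were of mixed kinds. Timm17b, part of the mitochondrial import channel and X-linked at chrX:7899357-7908351, averaged 48.01 ± 13.04 TPM in LP embryos and 68.5 ± 14.7 TPM in C embryos (log2 difference -0.52, SE 0.13, adjusted p = 0.545). Pin4, an X-linked prolyl isomerase, averaged 167.0 ± 78.1 TPM in LP embryos and 259.1 ± 65.3 TPM in C embryos. Mettl7a3, which has close relatives that could share its reads, had medians of 3.09 TPM in LP embryos and 9.79 TPM in C embryos. Trmt61b, a mitochondrial tRNA methyltransferase, had medians of 1.16 TPM in LP embryos and 8.08 TPM in C embryos, with a log2 difference of -1.74 on plate 2 and 0.34 on plate 3. Zfp345, a zinc finger gene, Nr2c2ap, E330020D12Rik, E330023G01Rik and 4930500J02Rik differed by -0.49, -0.38, -0.68, -1.08 and -0.80 log2 units.

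**Figure D3:**
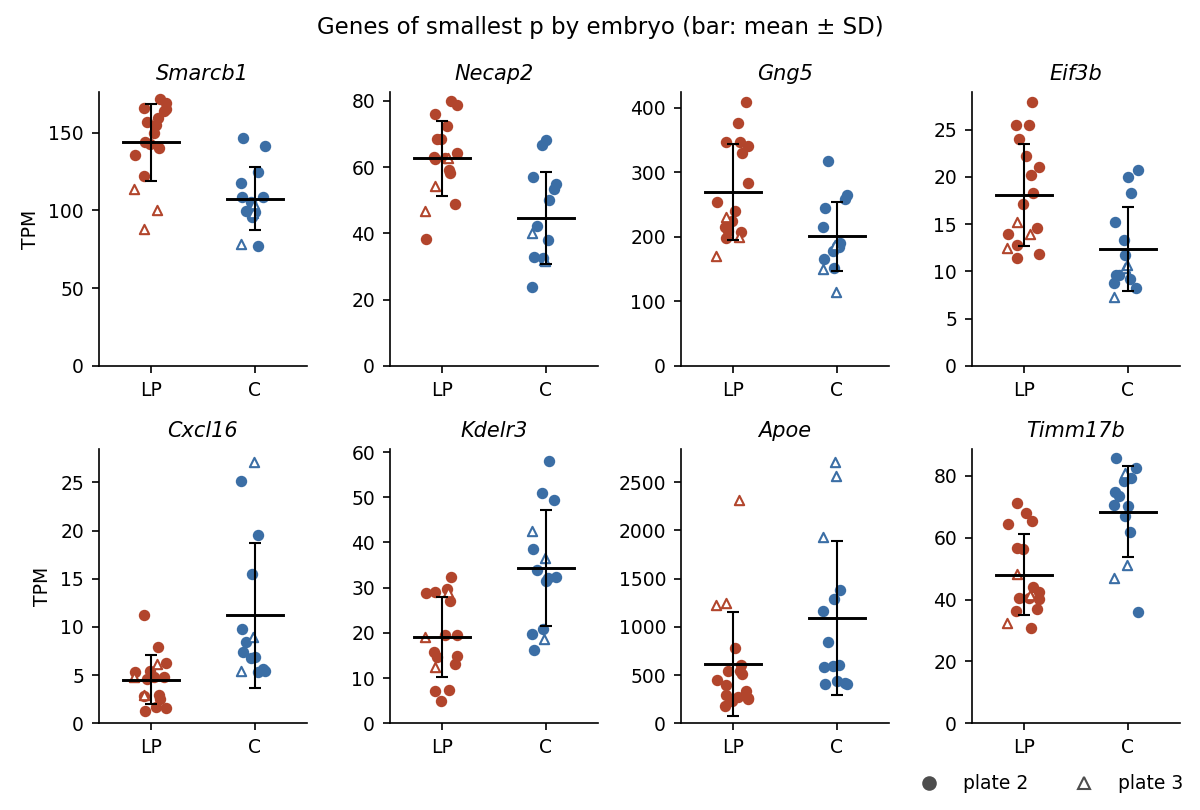
TPM of 8 of the 24 genes in each embryo, LP left of C, circles for plate 2 and triangles for plate 3, with the mean and SD of each group. Group ranges overlap in all 8, and for Apoe the plate 3 embryos of both diets, 1231 TPM and above, lie over most of plate 2.

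The unit that received the diet was the sire, and the calls depended on how sires entered the fit. With sire as a correlated block in place of independent embryos, 24 of 9290 genes passed, 10 higher and 14 lower in LP embryos. Of these, 21 were among the 24 genes above. Both fits use the same embryos, so this overlap was largely set in advance and is no replication. The estimated correlation within sires was -0.037, below 0. The standard error of Smarcb1 under the block was 0.07 against 0.08 in the fit without the block. A correlation below 0 makes standard errors smaller, so the 24 calls do not allow for spread between fathers. On means per sire, 2 against 2, 0 genes passed, with 73 at an unadjusted p under 0.05. With plate as a further covariate on the sire means, 0 passed, with 432 at an unadjusted p under 0.05 and a smallest adjusted p of 0.125. For scale, the fit over embryos tested 9290 genes, of which an even share under 0.05 would be 464.5. Fitting diet and plate to 4 sire means leaves very little from which to estimate error.

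The plates did not give a detectably different diet difference. In the interaction of diet with plate, 0 of 9290 genes passed (0%), with 376 at an unadjusted p under 0.05 (4.05%) and a smallest adjusted p of 0.643. With 3 embryos per diet on plate 3, this test could show large differences only. On plate 2 alone 0 genes passed (smallest adjusted p = 0.099), and on plate 3 alone 0 passed (smallest adjusted p = 0.902).

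The makeup of the groups by sex chromosome transcripts was uneven. Ddx3y and Eif2s3y, Y-linked genes for an RNA helicase and a translation initiation subunit, were both at 10 TPM or more in 10 of 17 LP embryos (58.8%, exact binomial 95% interval 32.9 to 81.6%) and in 3 of 14 C embryos (21.4%, 4.66 to 50.8%). The two-sided Fisher's exact p was 0.0669. On plate 2 the numbers were 8 of 14 LP and 3 of 11 C embryos (Fisher's exact p = 0.227), and on plate 3, 2 of 3 LP and 0 of 3 C embryos (Fisher's exact p = 0.4). The 4 suffixed embryos all had these transcripts, and 2 of them are among the 3 such C embryos. Values without the 4 suffixed embryos therefore also reflect a change in this makeup. In the 13 embryos with the Y-linked transcripts Xist lay between 0 and 3.34 TPM, and in the other 18 it lay between 23.9 and 72.2 TPM, with no value between.

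Xist therefore followed the same split. It had 0, 0.91 and 50.01 TPM as lowest, median and highest value in LP embryos, against 0.14, 40.4 and 72.2 TPM in C embryos. The log2 difference was -1.92 (SE 0.78, adjusted p = 0.998). Tsix, transcribed antisense to Xist, had medians of 0.89 TPM in LP embryos and 36.1 TPM in C embryos, and since the counting is not stated to use strand, reads of this overlapping pair cannot be told apart. Rhox5, an X-linked homeobox gene, had 0, 0 and 81.6 TPM in LP embryos, against 0, 12.8 and 65.6 TPM in C embryos (log2 difference -1.77, SE 0.73, unadjusted p = 0.0216).

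**Figure D4:**
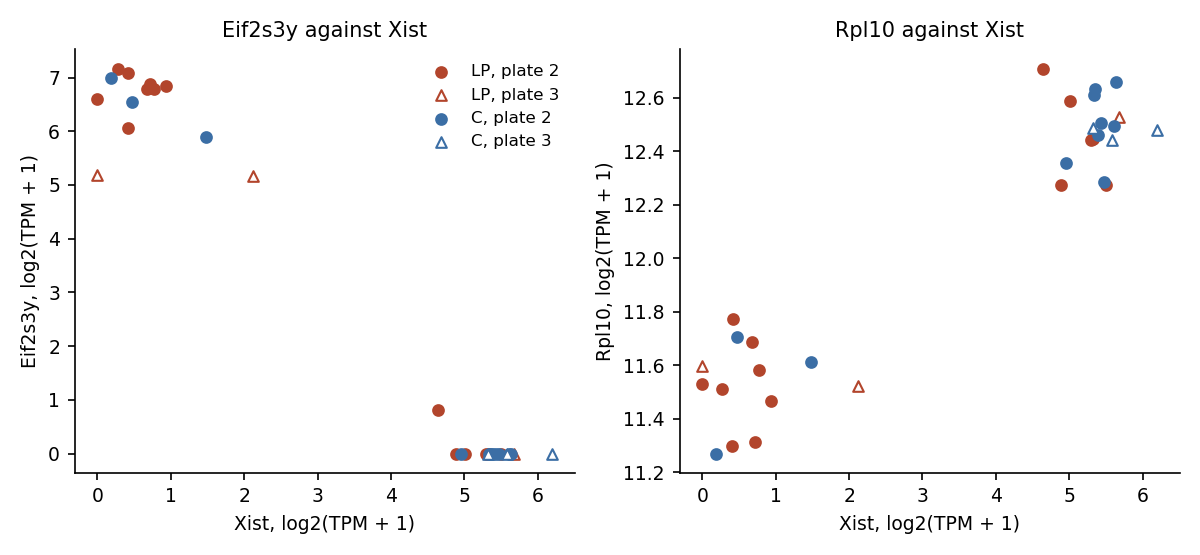
Eif2s3y (left) and the X-linked ribosomal protein gene Rpl10 (right) against Xist in each embryo, all as log2(TPM + 1), LP in red and C in blue, circles for plate 2 and triangles for plate 3. Embryos fall into 2 separate sets, 13 with Xist at or under 3.34 TPM and 18 with Xist at or over 23.9 TPM, and 10 of the 13 are LP.

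Across embryos of both diets, the Xist level went with many transcripts. Because Xist fell in 2 separate ranges, a slope on its log2 level measures in effect the difference between those ranges. With Xist beside diet and plate, 126 of 9290 genes had a slope that passed at an adjusted p of 0.05 (1.36%), 124 of them without Xist and Tsix. Of 295 other X-linked genes tested, 32 passed (10.8%) and 29 of these rose with Xist. Of 8591 autosomal genes, 85 passed (0.989%), 24 rising and 61 falling with Xist. Rpl10 and Rps4x, ribosomal proteins, rose by 0.20 and 0.15 log2 units per log2 unit of Xist (SE 0.015 and 0.018, adjusted p = 7.98e-12 and 7.12e-07). Idh3g, a subunit of a citric acid cycle enzyme, rose by 0.28 (adjusted p = 2.55e-11), Atp6ap2, a proton pump accessory protein, by 0.22 (adjusted p = 1.19e-08) and Renbp by 0.28 (adjusted p = 2.41e-08). Pgrmc1, a heme-binding membrane protein, was 1 of 3 X-linked genes that fell (slope -0.24, adjusted p = 0.000564). On autosomes Sycp3, a protein of the meiotic chromosome axis, rose with Xist by 0.25 (adjusted p = 0.000231).

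The diet difference of X-linked genes moved with that split. Without Xist in the fit, 37 of the 295 X-linked genes had an unadjusted p under 0.05 (12.5%), 9 higher and 28 lower in LP embryos, against 3.85% of autosomal genes. Their median log2 difference was -0.04, against 0.01 over autosomal genes. With Xist as a covariate the share was 6.44%, with 10 higher and 9 lower in LP embryos, against 5.69% of autosomal genes, and the median was 0.005, against -0.02 over autosomal genes. Rpl10 had 2521, 3296 and 6695 TPM in LP embryos, against 2469, 5671 and 6466 TPM in C embryos, ranges that overlapped almost wholly while the medians lay apart. For Rpl10 the difference was -0.37 without and 0.01 with Xist. Timm17b and Pin4 were at -0.36 and -0.32 with Xist in the fit, while Smarcb1 was at 0.41 and Cxcl16 at -1.19. With Xist as covariate 0 genes passed for diet, and the smallest adjusted p was 0.461.

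Gene lists for lineages, metabolism, stress, cell cycle and chromatin held 0 called genes in each of 31 lists with 7 or more genes tested. List medians lay between -0.17 and 0.13 log2 units, against 0.008 over all genes, of which 51.9% were higher in LP embryos and 4.2% had an unadjusted p under 0.05. In whole embryos, fewer cells of a type and less RNA per cell cannot be told apart. Of 23 trophectoderm markers 17 were higher in LP embryos and 6 were not, with a median of 0.11. Without C replicate 11 that was 13 of 23 with a median of 0.03, and without the 4 suffixed embryos 12 of 23 with a median of 0.004. Summed over the list, LP embryos had between 14370 and 29070 TPM (median 20870) and C embryos between 10690 and 28900 TPM (median 19590). Tfap2c, a trophectoderm factor, had the smallest p of the list, with 64.2 ± 20.9 TPM in LP embryos and 73.6 ± 17.1 TPM in C embryos (unadjusted p = 0.0734, and 0.283 with Xist in the fit). Krt8 and Krt18 differed by 0.26 and 0.25 log2 units (unadjusted p = 0.177 and 0.258). With Xist in the fit they differed by 0.48 and 0.51 (unadjusted p = 0.015 and 0.0203). Only 3 C embryos had low Xist, and C replicate 11, the lowest in both keratins, is among them. The fit with Xist was not repeated without it, here or for the genes below.

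The inner lineages were mixed as well. Of 21 pluripotency markers 14 were higher in LP embryos, with a median of 0.05. Spp1, a secreted phosphoprotein, was the 1 member with an unadjusted p under 0.05, at 6.73 ± 6.18 TPM in LP embryos and 3.20 ± 4.25 TPM in C embryos (unadjusted p = 0.0316, and 0.00716 with Xist in the fit). Without C replicate 11, 0 of the 21 had an unadjusted p under 0.05. Without the 4 suffixed embryos 12 of 21 were higher, with a median of 0.01. Nanog differed by -0.27 log2 units (SE 0.18, unadjusted p = 0.153). Of 17 primitive endoderm markers 11 were higher in LP embryos, and 3 had an unadjusted p under 0.05. Of those 3, Apoe and Rhox5 were lower, and Gata6, the factor that opens the primitive endoderm program, was higher, with 14.96 ± 6.50 TPM in LP embryos and 11.2 ± 6.5 TPM in C embryos (unadjusted p = 0.0482). The 3 did not share a direction. Without the 4 suffixed embryos 9 of the 17 markers were higher in LP embryos, with a median of 0.045, against 0.101 with them. With Xist in the fit the log2 difference was -0.55 for Rhox5 (unadjusted p = 0.371), against -1.77 without it, and 0.24 for Gata6 (unadjusted p = 0.256), against 0.40 without it. Of 10 genes for blastocoel transport 3 were higher in LP embryos, and Aqp3, a water and glycerol channel, had 337.3 ± 69.97 TPM in LP embryos and 445.1 ± 134.0 TPM in C embryos (log2 difference -0.35, SE 0.12, unadjusted p = 0.00582). With Xist in the fit it differed by -0.22 (unadjusted p = 0.0744).

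Metabolic lists stayed close to the background. Cholesterol synthesis, with 23 genes tested, had 12 higher in LP embryos, a median of 0.007 and 0 genes at an unadjusted p under 0.05. Hmgcs1, at the head of that pathway, had 46.6 ± 12.2 TPM in LP embryos and 39.1 ± 7.3 TPM in C embryos (unadjusted p = 0.132), and Stard4, a sterol carrier, 16.5 ± 3.6 TPM in LP embryos and 20.5 ± 6.9 TPM in C embryos (unadjusted p = 0.0676). Fatty acid metabolism had 16 of 21 genes higher in LP embryos with a median of 0.09, and 15 of 21 with a median of 0.02 without C replicate 11. Fabp5, a fatty acid binding protein, had 577.4 ± 190.4 TPM in LP embryos and 481.8 ± 167.4 TPM in C embryos (unadjusted p = 0.0541). Glycolysis had 11 of 18 genes higher, with Pkm, pyruvate kinase, at 643.3 ± 149.5 TPM in LP embryos and 545.2 ± 105.6 TPM in C embryos (unadjusted p = 0.0321, and 0.0111 with Xist in the fit). Without C replicate 11, 0 of the 18 had an unadjusted p under 0.05. Of 83 genes of the respiratory chain and ATP synthase 45 were higher in LP embryos, and 37 without C replicate 11, where the median was -0.009 against 0.011 with it. In one-carbon metabolism 9 of 19 were higher, and Sms, X-linked spermine synthase, had 36.2 ± 12.6 TPM in LP embryos and 48.7 ± 8.4 TPM in C embryos (unadjusted p = 0.00294). Its log2 difference was -0.47, and -0.27 with Xist in the fit (unadjusted p = 0.0588).

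Of 14 genes of the amino acid stress response 3 were higher in LP embryos, with a median of -0.12. Without C replicate 11 that was 4 of 14 with a median of -0.097, and 1 of 14 was lower at an unadjusted p under 0.05. Without the 4 suffixed embryos it was 2 of 14 with a median of -0.078. Slc3a2, the heavy chain of amino acid exchangers, had 214.5 ± 42.5 TPM in LP embryos and 249.8 ± 63.4 TPM in C embryos (unadjusted p = 0.0141, and 0.023 with Xist in the fit). Ddit4, an inhibitor of mTOR signaling, had 0.44 ± 0.90 TPM in LP embryos and 1.55 ± 2.03 TPM in C embryos (unadjusted p = 0.037, and 0.0463 with Xist in the fit). Of 18 p53 targets 3 were higher in LP embryos, with a median of -0.16 and 0 genes at an unadjusted p under 0.05. Without C replicate 11 that was 8 of 18 with a median of -0.12, and without the 4 suffixed embryos 4 of 18 with a median of -0.19. Mdm2, the p53 ubiquitin ligase, had 32.6 ± 10.4 TPM in LP embryos and 41.9 ± 19.2 TPM in C embryos (unadjusted p = 0.0734). Of 23 genes of the G2 and M phases 19 were higher in LP embryos with a median of 0.05, against 14 without C replicate 11 and 11 without the 4 suffixed embryos. Ccnb2, a mitotic cyclin, had 217.0 ± 37.8 TPM in LP embryos and 186.5 ± 42.03 TPM in C embryos (unadjusted p = 0.027, and 0.054 with Xist in the fit). Of the 23 genes, 2 had an unadjusted p under 0.05 with all embryos and 0 without C replicate 11. Mcm4, of the replicative helicase, had 116.9 ± 27.5 TPM in LP embryos and 97.8 ± 23.7 TPM in C embryos (unadjusted p = 0.0316, and 0.0407 with Xist in the fit). The S phase list had 12 of 21 higher. Of 15 heat shock genes 10 were higher, with Hspd1, a mitochondrial chaperonin, at 682.8 ± 143.3 TPM in LP embryos and 589.4 ± 183.2 TPM in C embryos (unadjusted p = 0.0374, and 0.0611 with Xist in the fit).

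Ribosomal protein genes had narrow intervals. Of 80 cytosolic ribosomal protein genes 43 were higher in LP embryos, with a median of 0.009, and every 95% interval lay within 1 log2 unit of 0. Without C replicate 11, 62 of the 80 were higher, with a median of 0.03. Many of these genes have pseudogenes that can share reads. Of 76 mitochondrial ribosomal protein genes 40 were higher, with 2 higher and 1 lower at an unadjusted p under 0.05. Without C replicate 11, 48 of the 76 were higher, with 6 higher and 1 lower at that level. Mrpl18 had 322.3 ± 58.4 TPM in LP embryos and 265.8 ± 59.5 TPM in C embryos (unadjusted p = 0.0098). Its log2 difference was 0.28, and 0.18 with Xist in the fit (unadjusted p = 0.0991). Of 30 histone modifiers and chromatin genes 17 were higher, 4 of them at an unadjusted p under 0.05 and 0 lower at that level. They included Smarcb1, Suv39h2 and Ep300. Suv39h2, a histone methyltransferase, had 1.401 ± 0.854 TPM in LP embryos and 0.51 ± 0.50 TPM in C embryos (unadjusted p = 0.00285, and 0.0248 with Xist in the fit). Ep300, a histone acetyltransferase, had 1.83 ± 0.79 TPM in LP embryos and 1.15 ± 0.76 TPM in C embryos (unadjusted p = 0.0288, and 0.121 with Xist in the fit). Of 13 DNA methylation genes 10 were higher with a median of 0.13. Without C replicate 11 that was 9 of 13 with a median of 0.10, and without the 4 suffixed embryos 9 of 13 with a median of 0.06. Dnmt3b, a de novo DNA methyltransferase, had 165.5 ± 57.3 TPM in LP embryos and 128.8 ± 38.1 TPM in C embryos (unadjusted p = 0.0651, and 0.036 with Xist in the fit). Of 24 replication-dependent histone genes 12 were higher with a median of 0.03, and 9 of 23 with a median of -0.14 without C replicate 11. The remaining lists were translation initiation factors with 33 of 50 higher, aminoacyl-tRNA synthetases with 13 of 18, proteasome subunits with 20 of 36, small RNA and tRNA processing with 11 of 18, ribosome assembly with 10 of 23, junctions and polarity with 10 of 24 and the Hippo pathway with 7 of 14. Of 17 genes of FGF and MAPK signaling 7 were higher, with a median of -0.02, which was 0.02 without C replicate 11. Spry1, an inhibitor of that pathway, had 1.53 ± 1.35 TPM in LP embryos and 2.66 ± 1.398 TPM in C embryos (unadjusted p = 0.0209, and 0.00745 with Xist in the fit).

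Genes linked to the 2-cell stage and to the oocyte were mostly low here. Of 38 genes linked to MERVL, the endogenous retrovirus active at the 2-cell stage, 13 passed the filter, and 4 of these were higher in LP embryos, with a median of -0.17. Without C replicate 11 the median was -0.09, and without the 4 suffixed embryos -0.05. Sp110, a nuclear body protein, had 18.8 ± 11.3 TPM in LP embryos and 35.7 ± 29.3 TPM in C embryos (unadjusted p = 0.0201, and 0.0683 with Xist in the fit), while Calcoco2, an autophagy receptor, had 6037 ± 795 TPM in LP embryos and 5500 ± 1127 TPM in C embryos (unadjusted p = 0.027, and 0.109 with Xist in the fit). Of 31 oocyte and maternal transcripts 13 passed the filter, and 3 of these were higher in LP embryos, with a median of -0.17. Without the 4 suffixed embryos it was 5 of 11 with a median of -0.01. Sperm transcripts Prm2 and Ldhc were at 0 TPM in all 31 embryos. Of 18 cumulus cell markers 1 passed the filter, and the summed level of the list was at most 6.09 TPM in LP embryos and 8.31 TPM in C embryos. Imprinted genes were sparse, with 4 of 8 paternally expressed genes and 3 of 7 maternally expressed genes higher in LP embryos. Without C replicate 11 the paternally expressed median was 0.17, against 0.008 with it. Snurf, which overlaps Snrpn, had 139.8 ± 27.8 TPM in LP embryos and 124.9 ± 34.7 TPM in C embryos (unadjusted p = 0.128), and Mest 10.3 ± 8.0 TPM in LP embryos and 7.83 ± 6.11 TPM in C embryos (unadjusted p = 0.177).

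**Figure D5:**
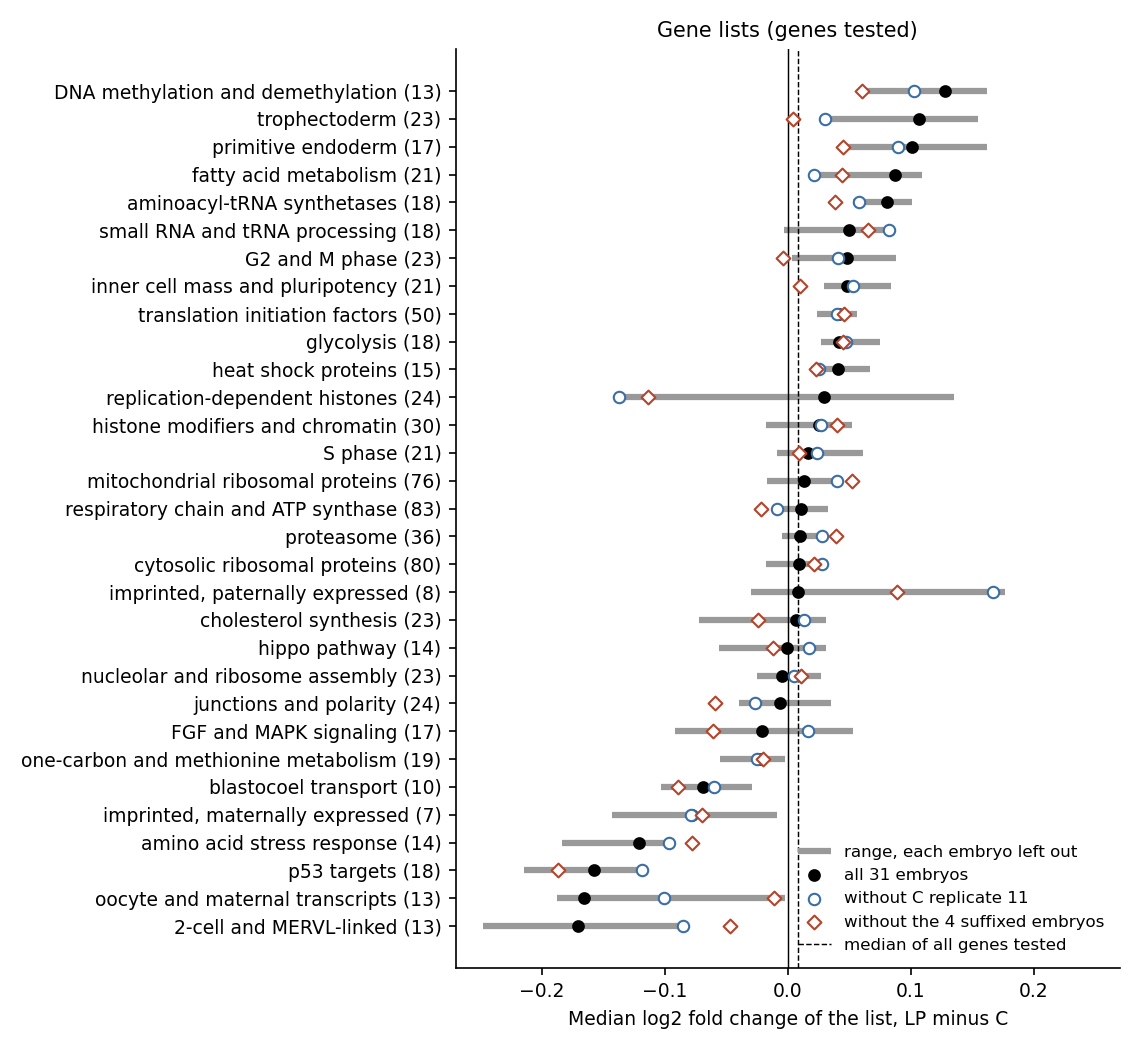
Median log2 fold change, LP minus C, of 31 gene lists (horizontal axis), with the number of genes tested in brackets. Filled points use all 31 embryos, open circles leave out C replicate 11, diamonds leave out the 4 suffixed embryos, and grey bars span the values with each embryo left out in turn; the trophectoderm median is 0.11, 0.03 and 0.004 in that order.

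The diet difference at the blastocyst stage was set against that in 73 morulae, 35 LP and 38 C. Most of these morulae were on plates that held none of the 31 blastocysts, so the stages also differ in plate and possibly in sire. The difference between the stages passed for 0 of 9612 genes (0%), with 362 at an unadjusted p under 0.05 (3.77%) and a smallest adjusted p of 0.867. Smarcb1 averaged 104.9 ± 32.6 TPM in LP morulae and 87.7 ± 29.1 TPM in C morulae (SD, n = 35 and 38), a log2 difference of 0.29 beside 0.40 in blastocysts. Apoe had the opposite sign, with 279.3 ± 333.5 TPM in LP morulae and 210.1 ± 360.0 TPM in C morulae, a log2 difference of 0.83 beside -0.80 in blastocysts. The difference between those values was -1.63 (unadjusted p = 0.0022, adjusted p = 0.997). Mettl7a3 and Trmt61b had the smallest and the third smallest p of all genes in this test, with differences of -1.75 and -1.65 and an adjusted p of 0.867 each, and were chosen here for their blastocyst values.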

How the data were processed

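The authors deposited the values as TPM per embryo, used as given. Bowtie and mm10 are named in the submitters' processing notes, without versions. The deposited table has 11076 genes, each reaching at least 5.87 TPM in some embryo, and sums of 985115 to 998407 TPM.

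Genes with 1 TPM in 25% of embryos were fitted as log2(TPM + 1) on diet and plate with limma 3.58.1 (R 4.3.3; eBayes with trend and robust; Benjamini-Hochberg, 0.05). Values per embryo were tested by permuting diet within plate (100000 resamples), and shares by Fisher's exact test (Python 3.11.15, scipy 1.17.1). The code was tested on simulated data.

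Named genes are the 24 of smallest p averaging 5 TPM or more in 1 diet (none passed), Xist, any of the 3 smallest p in each list, and defining markers. Of the 24, 1 is not reported here. Genes given with an Xist slope or a plate difference were picked after their values were seen. The members, lists and tests were chosen with earlier results of these data known. Gene coordinates are from GENCODE vM21 (GRCm38, that is mm10), which held 10587 of the 11076 symbols. Excel-style dates replaced 15 symbols. Alternatives covered pseudocount, filters, normalization, plate, sire, donor, weights, Xist, and leaving out embryos and sires.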

Additional observations from a re-analysis of the deposited data

Results flagged for a closer look

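The late blastocysts of plate 7, used here only to build the score for progress from morula to late blastocyst, had scores of 3.48, 3.49, 3.99, 4.09 and 5.63. The highest, an LP embryo, lay apart from the others by 0.714 of the whole range, against a critical value of 0.710 for 5 samples. It was the 1 group of 3 so tested that passed, and chance alone nominally passes about 1 in 20. These late blastocysts, and the plate 7 morulae also tested, served to pick the genes of the score, so that rate need not hold.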

How the results depend on the processing

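No gene passed for diet under a pseudocount of 0.1, no filter, a stricter filter of 5 TPM, quantile normalization, Rn45s left out, no plate, either plate alone, plate 6 added, oocyte donor, array weights, no trend or Xist as covariate, nor, chosen after seeing the data, without the 4 suffixed embryos or with donor and Xist together. Over these 15 fits 263 to 608 genes had an unadjusted p under 0.05, and the smallest adjusted p was 0.099 to 0.902. With each embryo or sire left out 0 passed. Over the 31 embryos left out, 346 to 490 genes had an unadjusted p under 0.05, and the smallest adjusted p was 0.0782 to 0.723. Sire as a correlated block gave 24 calls, the exception, with an estimated correlation below 0 and smaller standard errors. Of the 24 named genes, 22 to 24 kept their direction when an embryo or sire was left out, and 21 on plate 3 alone. Their choice by small p in all 31 embryos favored this. On plate 3 alone Hist2h3c1 was at -0.40, Trmt61b at 0.34, Ddit4 at 0.22 and Dnmt3b at -0.13 log2 units, against the opposite sign in all embryos, and the cause was not tested. Leaving out embryos or sires gave -0.40 to 2.41 for Hist2h3c1, -1.74 to 0.34 for Trmt61b, -0.87 to 0.22 for Ddit4 and -0.13 to 0.46 for Dnmt3b, where leaving out a sire of plate 2 leaves plate 3 to set the value. With Xist as covariate, and with donor and Xist, the log2 difference was 0.012 and 0.018 for Rpl10, -0.156 and -0.154 for Eif2s3y and 0.143 and 0.174 for Tsix. The interaction of diet with plate gave 1 call at a pseudocount of 0.1 and the one with the morula stage gave 0. Counting genes above 0 TPM turned the difference in genes detected to 15.8, and the log2 Rn45s share differed by 0.007, both far inside the spread between embryos. Leaving out embryos under 7000 genes removed none. Oocyte donor as covariate, which sets embryos of both diets beside each other within each of the 4 donors, gave 0 calls with a smallest adjusted p of 0.266. With 2 sires per diet the spread between fathers is poorly estimated, and TPM alone does not give the depth of a library.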

Other observations

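Plate 3 and plate 2 differed in more genes than the diets. With diet in the fit, 1474 of 9290 genes differed between plates (15.9%), 294 higher and 1180 lower on plate 3. The log2 difference, plate 3 minus plate 2, was -8.53 for Gm20594 (limma adjusted p = 4.4e-20), -4.90 for H2-T24, a class I histocompatibility gene (adjusted p = 3.31e-16), and -0.89 for Rrm1, the large subunit of ribonucleotide reductase (adjusted p = 2.57e-09). The plates differ in sires and in oocyte donors, and these cannot be told apart from the plate. Among the 3 oocyte donors of plate 2, 0 of 9290 genes differed at an adjusted p of 0.05 (0%).

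Of the other blastocysts in the series, 1 of 5 LP embryos of plate 6, 0 of 3 LP late blastocysts and 0 of 2 C late blastocysts had Ddx3y and Eif2s3y at 10 TPM or more.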
